A study of Mus musculus with 4 samples.

Results

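The Rab genes encode the largest family of Ras-like small GTPases. They were taken as the genes of the deposited expression table whose symbol is Rab followed by a number and at most a letter and a further digit. This rule found 57 Rab genes among 23234 genes, and it used no measured value. Rab proteins are switches on the membranes of the secretory and endocytic pathways. They cycle between a form bound to GTP, which sits on a membrane and recruits effectors such as tethers and motor proteins, and a form bound to GDP, which a GDP dissociation inhibitor (GDI) holds in the cytosol on its lipid tail. Exchange factors (GEFs) switch a Rab on and GTPase-activating proteins (GAPs) switch it off. Maturing erythroblasts depend on endocytosis and recycling of the transferrin receptor for their iron, and later clear their organelles, while mast cells, platelets and pigment cells use a set of Rab proteins to build and release granules.

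RNA sequencing covered extensively self-renewing erythroblasts (ESREs) of the mouse, immature red cell precursors kept dividing in culture. The proliferating knockdown library came from dividing ESREs with a short hairpin RNA (shRNA) that targets Setd8, the histone H4 lysine monomethyltransferase. The maturing control library came from ESREs with a non-targeting shRNA that had spent 6 h in maturation medium. The proliferating control library came from dividing ESREs with the non-targeting shRNA. A maturing knockdown group is also described in the labels and was not analysed here. Every library shares the shRNA procedure, and the labels name neither separate cultures nor clones.

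Each group was thus 1 library, so no difference below has a replicate check, and whether groups overlap cannot be judged. Levels are in FPKM, which counts fragments for each kilobase of a transcript relative to all fragments of its library. A gene was called where the q-value in the authors' deposited table was at most 0.05. The standard error (SE) is that of the authors' model, the deposited log2 ratio over its test statistic, and its median was 0.45 on the log2 scale for genes at 5 FPKM or more. Relative depth was 1.44 for the knockdown library and 1.55 for the maturing control library, with the proliferating control library at 1. The level of Setd8 was 9.28 FPKM in the knockdown library, 25.9 FPKM in the maturing control and 25.1 FPKM in the proliferating control, so the library labelled as the knockdown held 37.0% of the proliferating control's level (log2 ratio -1.43, SE 0.42, q 0.0122 in the authors' deposited table). The 9 red cell markers summed to 672 FPKM in the knockdown library, 2957 FPKM in the maturing control and 1822 FPKM in the proliferating control, and the factor Gata1 stood at 61.1, 65.5 and 52.8 FPKM in that order.

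Most Rab genes with an appreciable level in these erythroblasts belonged to the general secretory and endocytic pathways, and their levels lay close together in the 3 libraries. At least 1 FPKM in any library was reached by 37 of the 57 Rab genes, which are called measured here, and 30 of them reached it in every library. Counted per library, 37 Rab genes (64.9%) stood at 1 FPKM or more in the knockdown, 31 (54.4%) in the maturing control and 32 (56.1%) in the proliferating control. The same shares over all genes were 39.4%, 38.7% and 38.4% in that order of libraries. The levels of all Rab genes summed to 536.6 FPKM in the knockdown, 424.4 FPKM in the maturing control and 422.2 FPKM in the proliferating control. The knockdown sum was 1.27 times and the maturing sum 1.01 times that of the proliferating control.

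The highest level belonged to Rab5c, a Rab5 isoform of early endosome fusion, at 50.0 FPKM in the knockdown, 53.4 FPKM in the maturing control and 53.5 FPKM in the proliferating control. Rab7, which drives late endosomes to fuse with lysosomes, followed at 47.1, 45.7 and 46.6 FPKM in the same libraries. These values lay close together, and neither gene was called. Rab18, a Rab of the endoplasmic reticulum (ER) and lipid droplets, had 35.7 FPKM in the knockdown, 31.9 FPKM in the maturing control and 28.6 FPKM in the proliferating control. Rab1 and Rab1b carry traffic out of the ER to the Golgi. Rab1 had 32.7, 21.3 and 23.4 FPKM, and Rab1b 31.8, 23.8 and 26.4 FPKM, in the same order, so both were highest in the knockdown library without a call. Rab35, which acts in fast recycling and cytokinesis, went the other way with 19.2 FPKM in the knockdown, 31.7 FPKM in the maturing control and 27.6 FPKM in the proliferating control, also without a call. The other 4 of the 10 measured Rab genes with the highest mean level were not called either. Rab14, between trans-Golgi and endosomes, had 24.0 FPKM in the knockdown, 20.9 FPKM in the maturing control and 20.1 FPKM in the proliferating control. In the same order, Rab10, a Rab of exocytosis, had 19.9, 19.2 and 19.3 FPKM, Rab8a, of delivery to the plasma membrane, had 15.4, 17.6 and 16.5 FPKM, and Rab6a, of the Golgi, had 14.0, 14.8 and 13.8 FPKM.

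**Figure D1:**
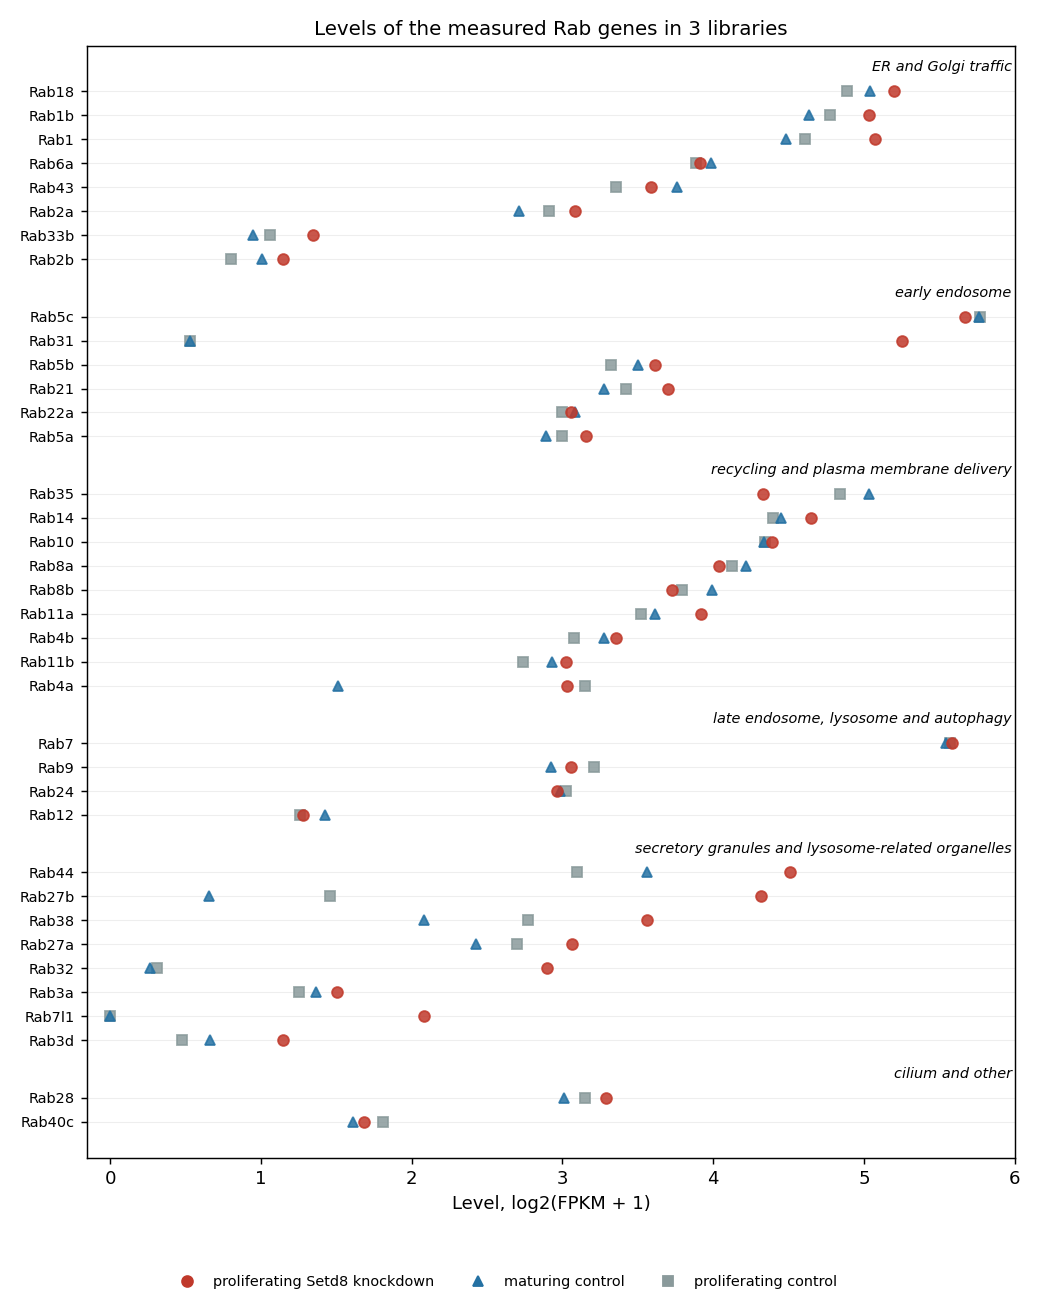
Level of each of the 37 measured Rab genes as log2(FPKM + 1) on the horizontal axis, grouped by role, with 1 point per library (circles, proliferating Setd8 knockdown; triangles, maturing control; squares, proliferating control). The points of most genes lie together. The circles of genes such as Rab31, Rab27b, Rab32, Rab7l1, Rab44 and Rab38 lie to the right of both controls, and the triangle of Rab4a lies to the left.

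A core of 24 Rab genes stood at 5 FPKM or more in every library. Their log2 ratios of FPKM + 1, knockdown over proliferating control, ran from -0.51 for Rab35 to 1.42 for Rab44, and 22 of the 24 were within 0.5 in size. For maturing over proliferating control they ran from -0.28 for Rab9 to 0.47 for Rab44, and all 24 were within 0.5. The 1 call in this core was Rab44 in the knockdown comparison, and no share of calls over all genes at that level is given beside it. The median log2 ratio of the core was 0.17 in the knockdown comparison and 0.07 in the maturation comparison. Over all 4364 genes at that level the medians were -0.09 and -0.01, and the shares within 0.5 were 85.6% and 92.6%.

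In the knockdown library a small set of Rab genes stood far above the proliferating control. The authors' deposited table called 7 of 42 tested Rab genes higher, at 5.81% of all tested genes called higher, and 1 of 42 lower, at 3.24% of all tested genes. Those higher were Rab31, Rab32, Rab27b, Rab7l1, Rab44, Rab3d and Rab13, and the lower one was Rab30. Among the 37 measured Rab genes, 6 were higher and 0 lower by the calls of the authors' deposited table, since Rab13 and Rab30 stayed below 1 FPKM throughout. The 5.81% and 3.24% include genes below 1 FPKM, and no share of calls over all measured genes is given to set beside these 2 counts. A log2 ratio of FPKM + 1 of at least 1 was reached upward by 5 of 37 (Rab31, Rab27b, Rab32, Rab7l1 and Rab44), at 4.38% of all 9611 measured genes, and downward by 0 of 37, at 2.6%. Of the 6 measured genes called higher, 4 passed the 1 FPKM minimum only through the knockdown library, so these counts lean upward by the filter. With the minimum set in the proliferating control, the authors' deposited table called 2 of 32 tested Rab genes (6.25%) higher, Rab27b and Rab44, beside 1.27% of 8820 genes. The median log2 ratio of FPKM + 1 over the measured Rab genes was 0.25, beside -0.05 over all measured genes, and 29 of 37 (78.4%) had a higher value, beside 44.3%.

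Rab31, a relative of Rab22a that moves cargo between the trans-Golgi network and endosomes, had the largest ratio of the Rab genes with a finite one. Its row lies on mm9 chromosome 17 from base 66001065 to base 66122092. Its level was 37.0 FPKM in the knockdown, 0.441 FPKM in the maturing control and 0.445 FPKM in the proliferating control. It was thus below 0.5 FPKM in both controls and the third highest Rab transcript of the knockdown library. The level was 83.3-fold higher in the knockdown than in the proliferating control, and the authors' deposited table gives a log2 ratio of 6.38 with an SE of 0.47 and a q listed at 0. Rab22a, its close relative on early and recycling endosomes, had 7.31 FPKM in the knockdown, 7.50 FPKM in the maturing control and 7.00 FPKM in the proliferating control and was not called. Of the summed level of the pair, Rab31 made up 83.5% in the knockdown, 5.56% in the maturing control and 5.97% in the proliferating control. The sequence upstream of each start, from RefSeq on build GRCm38.p6, is given to show the contrast within this pair. The 150 bases end 101 bases before the start, read 5′ to 3′ on the gene's strand, and lie at chr17:65772853-65773002 on the minus strand for Rab31 and at chr2:173659595-173659744 on the plus strand for Rab22a.
Rab31: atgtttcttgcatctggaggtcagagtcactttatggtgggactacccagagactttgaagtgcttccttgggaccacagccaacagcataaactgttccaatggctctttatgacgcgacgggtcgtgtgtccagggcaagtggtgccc
Rab22a: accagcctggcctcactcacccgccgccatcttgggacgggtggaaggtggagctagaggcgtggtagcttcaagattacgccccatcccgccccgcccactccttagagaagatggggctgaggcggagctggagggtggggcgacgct
The GATA letters searched on both strands were AGATAA with its variant TGATAA and, for the other last letter, AGATAG with its variant TGATAG. The E-box letters searched likewise were CACGTG and its variant CATGTG. Neither stretch held any of these. The Rab22a window of 250 bases was richer in G and C, at 70.0%, than that of Rab31, at 57.6%.

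The other Rab genes called higher with levels of 1 FPKM or more were all placed here in the role group of secretory granules and lysosome-related organelles. Rab7l1 is the least clear of these, since its described role is at the trans-Golgi network and lysosomes. Rab32 guides enzymes to melanosomes and related organelles and lies on mm9 chromosome 10 from base 10264836 to base 10278005. Its level was 6.46 FPKM in the knockdown, 0.200 FPKM in the maturing control and 0.239 FPKM in the proliferating control. Only the knockdown library held it above 1 FPKM, 27.0-fold over the proliferating control, and the authors' deposited table gives a log2 ratio of 4.75 with an SE of 0.53 and a q listed at 0. Its partner Rab38, which shares that pathway, had 10.8 FPKM in the knockdown, 3.24 FPKM in the maturing control and 5.83 FPKM in the proliferating control. Rab38 was highest in the knockdown too, without a call against the proliferating control in the authors' deposited table (log2 ratio 0.89, SE 0.51, q 0.530). Of the summed level of the pair, Rab32 was 37.5% in the knockdown, 5.81% in the maturing control and 3.95% in the proliferating control.

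Rab27b, which docks granules in mast cells and platelets, had 18.9 FPKM in the knockdown, 0.578 FPKM in the maturing control and 1.75 FPKM in the proliferating control. The 3 libraries lay far apart, the knockdown 10.8-fold above the proliferating control. The authors' deposited table gives it a log2 ratio of 3.44 with an SE of 0.45 and a q of 2.31e-12. Rab27a, the isoform of melanosomes and lytic granules, had 7.36 FPKM in the knockdown, 4.39 FPKM in the maturing control and 5.49 FPKM in the proliferating control, with no call. Rab27b was 72.0% of the summed level of both isoforms in the knockdown, 11.6% in the maturing control and 24.1% in the proliferating control, so the isoform of the higher level differed between the libraries.

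**Figure D2:**
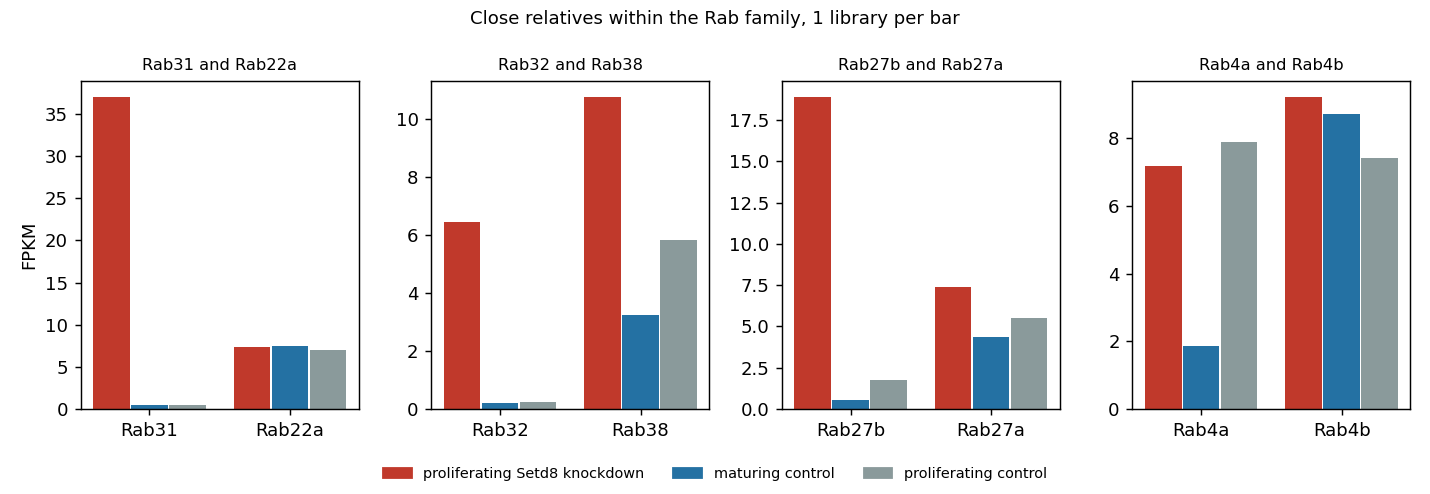
Level in FPKM (vertical axis, a separate scale per panel) of 4 pairs of close relatives, with 1 bar per library (red, proliferating Setd8 knockdown; blue, maturing control; grey, proliferating control). Rab31 reaches 37.0 FPKM in the knockdown beside Rab22a at 7.31 FPKM, Rab27b reaches 18.9 FPKM, and Rab4a stands at 1.86 FPKM in the maturing control beside Rab4b at 8.70 FPKM.

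Rab44, an unusually large Rab with calcium-binding EF hands that acts in mast cell degranulation, was the only called gene of the core. It lies on mm9 chromosome 17 from base 29272000 to base 29285921. Its level was 21.8 FPKM in the knockdown, 10.8 FPKM in the maturing control and 7.54 FPKM in the proliferating control. The knockdown was highest and 2.89-fold above the proliferating control, and the authors' deposited table gives a log2 ratio of 1.53, an SE of 0.41 and a q of 0.00350. Rab3d, a granule Rab of exocrine and mast cells, was low everywhere, with 1.21 FPKM in the knockdown, 0.581 FPKM in the maturing control and 0.389 FPKM in the proliferating control. Its call in the authors' deposited table lay near the threshold (log2 ratio 1.64, SE 0.55, q 0.0395). Rab3d was also the measured Rab gene nearest to the 1 FPKM minimum from above, and Rab13, at most 0.679 FPKM, the nearest from below. Rab3a, the synaptic vesicle isoform, had 1.84 FPKM in the knockdown, 1.57 FPKM in the maturing control and 1.38 FPKM in the proliferating control, with no call.

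Rab7l1, known in current nomenclature as Rab29, acts at the trans-Golgi network and lysosomes and recruits the kinase Lrrk2. Its row lies on mm9 chromosome 1 from base 133763853 to base 133769464. It had 3.24 FPKM in the knockdown library and was listed at 0 in the maturing control and in the proliferating control. No fold can be given against a level listed at 0, and the authors' deposited table calls it higher with a q of 0.00294. Rab7, with its similar name but another role, stood at 47.1 FPKM in the knockdown and near that in both controls. Upstream stretches of Rab32 and Rab7l1 are shown because both genes were near or at 0 in the controls and both stretches hold GATA letters, the core motif of the GATA factors. They lie at chr10:10558308-10558457 on the minus strand and chr1:131867027-131867176 on the plus strand of GRCm38.p6 (RefSeq), cover the same distance as above, and carry the match in capitals.
Rab32: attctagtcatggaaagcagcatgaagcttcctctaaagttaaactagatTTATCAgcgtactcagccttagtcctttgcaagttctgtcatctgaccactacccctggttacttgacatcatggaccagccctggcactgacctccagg
Rab7l1: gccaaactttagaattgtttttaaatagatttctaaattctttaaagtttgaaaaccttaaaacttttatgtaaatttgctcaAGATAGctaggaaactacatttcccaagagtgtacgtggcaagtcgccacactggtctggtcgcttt
These letters are frequent. Windows of the 250 bases before the start were matched for 47 of the 57 Rab genes, and 13 of their 59 windows (22.0%) held a GATA match, beside 26.5% of all 32851 windows. GATA matches stood before Rab32, Rab7l1 and Rab13, which were called higher in the knockdown. They also stood before Rab3b, Rab5b, Rab7, Rab11b, Rab14, Rab15, Rab20, Rab34, Rab40c and Rab43, which were not called. An E-box match stood in 11 of the 59 (18.6%), beside 17.6% of all windows. A window counted once, however many matches it held and whether or not they overlapped. The median G and C content was 60.4% for the Rab windows and 52.4% for all windows. A match is a run of letters only and says nothing of binding in these cells.

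**Figure D3:**
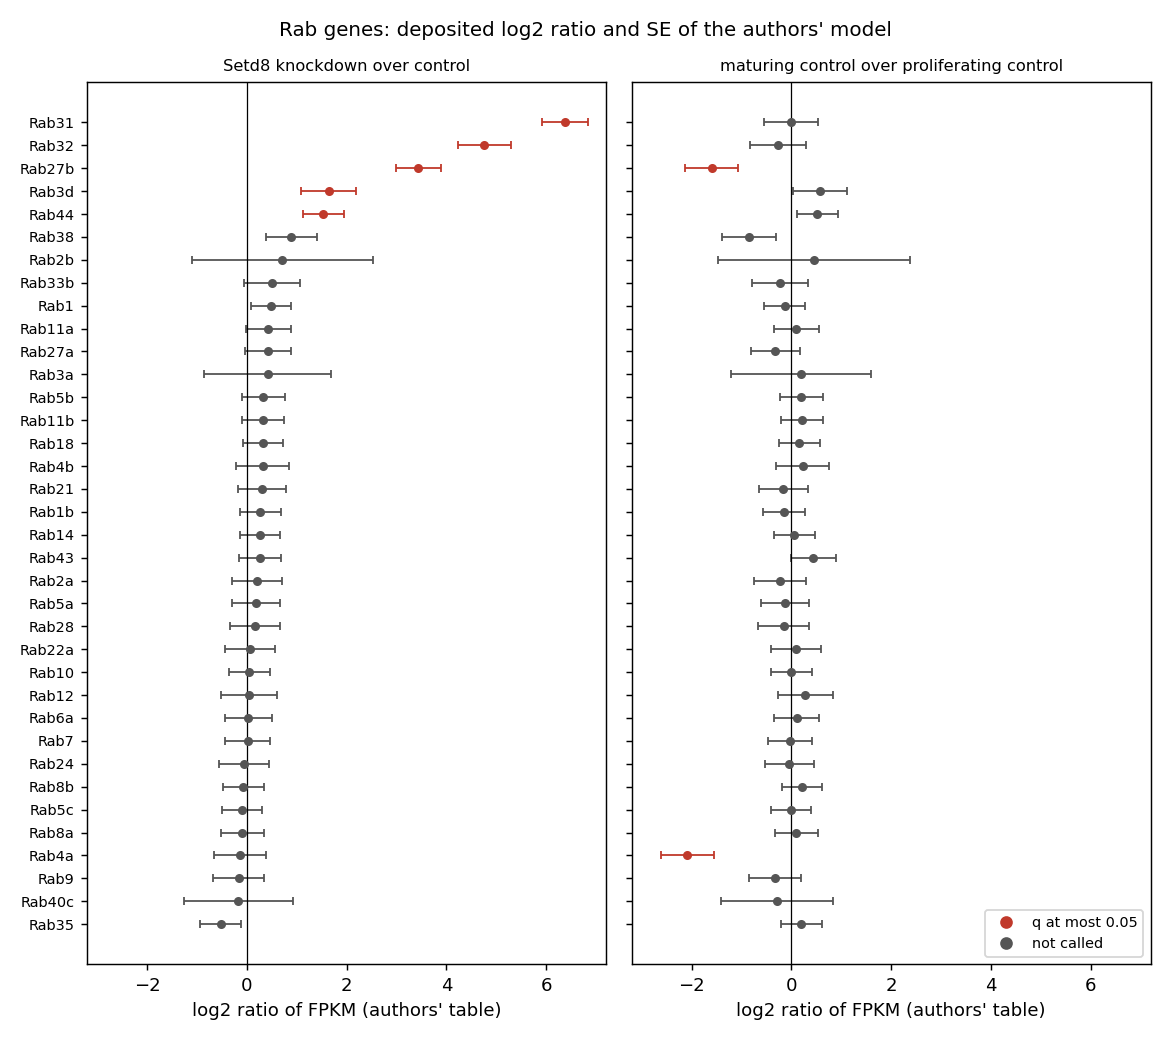
Deposited log2 ratio of FPKM (horizontal axis) with 1 SE of the authors' model as bars for the measured Rab genes other than Rab7l1, which has no finite ratio; left, proliferating Setd8 knockdown over proliferating control; right, maturing control over proliferating control. Red marks a q of at most 0.05: Rab31, Rab32, Rab27b, Rab3d and Rab44 on the left, and Rab27b and Rab4a to the left of 0 on the right.

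Role groups were drawn up with earlier results of these data known, so their sums and calls only describe these libraries. Summed by role, the granule group had the largest ratio of knockdown to proliferating control, 3.15. Its 12 genes, 8 of them measured, summed to 71.9 FPKM in the knockdown, 21.6 FPKM in the maturing control and 22.8 FPKM in the proliferating control. This was 13.4% of the Rab sum in the knockdown, 5.09% in the maturing control and 5.40% in the proliferating control. The authors' deposited table called 5 of its 9 tested genes higher in the knockdown and 0 lower, at 5.81% and 3.24% of all tested genes. Of its 8 measured genes, Rab32, Rab7l1 and Rab3d reached 1 FPKM only in the knockdown. The 11 mast cell and basophil markers summed to 501.5 FPKM in the knockdown, 38.1 FPKM in the maturing control and 71.0 FPKM in the proliferating control. Hdc held the largest part of each sum, at 277, 28.7 and 42.5 FPKM in the same order. Fcer1a and Mcpt8 stayed below 1 FPKM in every library. The authors' deposited table called 8 of the 11 markers higher in the knockdown, and Mcpt8 was at 0 in the proliferating control. The granule protein genes Tpsab1 and Cma1 stood high in the knockdown library. Tpsab1 had 40.4 FPKM in the knockdown, 0.0662 FPKM in the maturing control and 0.565 FPKM in the proliferating control, and Cma1 had 21.0, 1.69 and 1.61 FPKM in the same order. Gata2, a factor of mast cell and early blood progenitors, had 129 FPKM in the knockdown, 29.6 FPKM in the maturing control and 54.9 FPKM in the proliferating control. Of the 9 red cell markers, 3 were called lower in the knockdown and 0 higher in the authors' deposited table. The part of these markers in the Rab differences was not tested, and in bulk RNA a larger share of cells of a type and more RNA per cell cannot be told apart.

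The 10 megakaryocyte and platelet markers summed to 23.6 FPKM in the knockdown, 8.75 FPKM in the maturing control and 14.6 FPKM in the proliferating control, with Ppbp and Selp at 0 in every library. The 9 granulocyte and monocyte markers summed to 11.9, 5.07 and 4.83 FPKM in the same order, with Elane and Lyz2 at 0 throughout. Fcgr3 held most of each of these sums, at 10.4, 3.55 and 3.59 FPKM. The authors' deposited table called 3 of the 10 and 2 of the 9 higher in the knockdown, where 5.81% of all tested genes were called higher. The 5 lymphocyte markers stayed below 0.05 FPKM in sum. The 7 fibroblast, endothelial and hepatocyte markers summed to 2.62 FPKM in the knockdown, 0.144 FPKM in the maturing control and 0.0579 FPKM in the proliferating control. Trf held most of each sum, at 2.39, 0.128 and 0.0364 FPKM in that order. The authors' deposited table calls 2 of the 7 higher in the knockdown, beside the same 5.81%, and Cdh5 and Alb were at 0 throughout. The precursor of ribosomal RNA, Rn45s, had 190.5 FPKM in the knockdown, 133 FPKM in the maturing control and 95.0 FPKM in the proliferating control. The part of these values in the Rab results was not tested either.

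**Figure D4:**
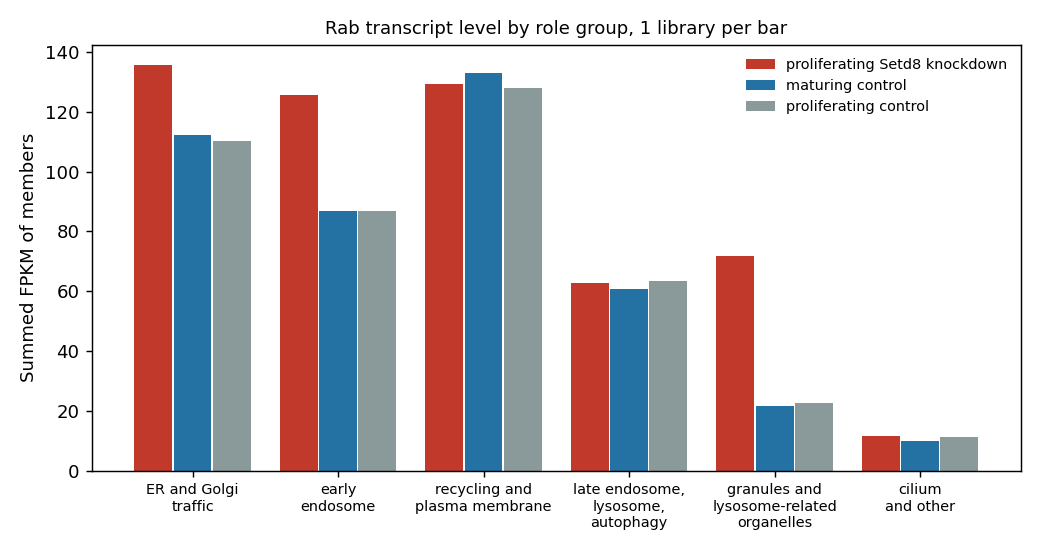
Summed level in FPKM (vertical axis) of the Rab genes of each role group (horizontal axis), with 1 bar per library (red, proliferating Setd8 knockdown; blue, maturing control; grey, proliferating control). The granule group stands at 71.9 FPKM in the knockdown beside 21.6 FPKM in the maturing control and 22.8 FPKM in the proliferating control, and the early endosome group differs by the level of Rab31.

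The sums of the remaining role groups lay closer together, apart from Rab31. The early endosome group (Rab5a, Rab5b, Rab5c, Rab21, Rab22a and Rab31 measured) summed to 126 FPKM in the knockdown, 86.8 FPKM in the maturing control and 86.7 FPKM in the proliferating control. Within it, Rab21, a Rab of integrin endocytosis, had 12.0, 8.68 and 9.74 FPKM in the same order, and Rab5a and Rab5b ranged from 6.41 to 11.3 FPKM over the libraries. The ER and Golgi group, with 8 measured genes, summed to 135.7 FPKM in the knockdown, 112 FPKM in the maturing control and 110.1 FPKM in the proliferating control. All 8 had a higher value in the knockdown, with log2 ratios of FPKM + 1 from 0.03 to 0.46, and none of them was called. Rab43, a Golgi Rab, lay between 9.25 and 12.6 FPKM, and Rab2a, of ER and Golgi transport, had 7.48, 5.56 and 6.51 FPKM in the same order of libraries, while Rab2b and Rab33b lay between 0.741 and 1.54 FPKM. The recycling and plasma membrane group, with 9 measured genes, summed to 129 FPKM in the knockdown, 133 FPKM in the maturing control and 128 FPKM in the proliferating control. Rab8b, the relative of Rab8a, had 12.2 FPKM in the knockdown, 14.9 FPKM in the maturing control and 12.9 FPKM in the proliferating control. The Rab11 isoforms of slow recycling had 14.1 FPKM (Rab11a) and 7.12 FPKM (Rab11b) in the knockdown, beside 11.2 and 6.62 FPKM in the maturing control and 10.5 and 5.69 FPKM in the proliferating control. The late endosome, lysosome and autophagy group of Rab7, Rab9, Rab24 and Rab12 summed to 62.7 FPKM in the knockdown, 60.9 FPKM in the maturing control and 63.4 FPKM in the proliferating control. Rab9, which returns receptors from late endosomes to the Golgi, had 7.34, 6.59 and 8.23 FPKM in the same order, and Rab24, linked to autophagy, 6.81, 6.93 and 7.13 FPKM. Rab12 lay between 1.39 and 1.69 FPKM. Rab28 and Rab40c, the measured genes of the last group, had 8.77 and 2.22 FPKM in the knockdown, beside 7.07 and 2.05 FPKM in the maturing control and 7.89 and 2.50 FPKM in the proliferating control. Without the 6 measured genes called higher, the Rab sum was 448 FPKM in the knockdown, 411.8 FPKM in the maturing control and 411.9 FPKM in the proliferating control. Those 6 were picked by their call in the knockdown comparison itself, so the smaller gap between these sums follows from that choice.

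Below 1 FPKM in every library stood 20 Rab genes: Rab3b, Rab3c, Rab6b, Rab9b, Rab13, Rab15, Rab17, Rab19, Rab20, Rab23, Rab25, Rab26, Rab30, Rab33a, Rab34, Rab36, Rab37, Rab39, Rab39b and Rab40b. Many of these are known from neurons, endocrine cells or epithelia. Rab13, a Rab of epithelial tight junctions, had 0.679 FPKM in the knockdown, 0.0836 FPKM in the maturing control and 0.0810 FPKM in the proliferating control, with a log2 ratio of 3.07, an SE of 0.65 and a q of 8.61e-05 in the authors' deposited table. Rab30, a Golgi Rab, had 0.00474 FPKM in the knockdown, 0.170 FPKM in the maturing control and 0.218 FPKM in the proliferating control, with a log2 ratio of -5.52, an SE of 1.57 and a q of 0.00811 in the authors' deposited table. Both genes stayed below 1 FPKM in every library and are named because the table calls them.

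After 6 h in maturation medium the summed Rab level was 1.01 times that of the proliferating control, and 2 Rab genes were lower. The authors' deposited table called 0 of 40 tested Rab genes higher, at 0.584% of all tested genes called higher, and 2 of 40 lower, at 1.17%. The same 2 genes were the only ones of the 40 (5%) at an unadjusted p under 0.05 in the authors' deposited table. No share over all genes is given for that p, so this count adds nothing to the calls. A log2 ratio of FPKM + 1 of at least 1 in size was reached upward by 0 of 37 measured genes, at 0.52% of all measured genes, and downward by 1 of 37, Rab4a, at 1.14%. The median log2 ratio of FPKM + 1 was -0.00 over the measured Rab genes and 0.01 over all measured genes, and 17 of 37 (45.9%) had a higher value, beside 52.6%.

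Rab4a, a Rab of fast recycling through which the transferrin receptor returns to the surface, had the larger ratio of the 2. It lies on mm9 chromosome 8 from base 126329895 to base 126359191. Its level was 1.86 FPKM in the maturing control and 7.17 FPKM in the proliferating knockdown, against 7.88 FPKM in the proliferating control. The maturing library was thus the low one and stood at 23.6% of the proliferating control, with a log2 ratio of -2.08, an SE of 0.53 and a q of 0.00222 in the authors' deposited table. The isoform Rab4b had 8.70 FPKM in the maturing control and 9.23 FPKM in the knockdown, against 7.43 FPKM in the proliferating control, and had no call. Rab4a made up 17.6% of the summed level of both isoforms in the maturing control and 43.7% in the knockdown, against 51.5% in the proliferating control. Around Rab4a, none of the 6 measured genes within 200 kb was called in either comparison. The other gene that fell was Rab27b, at 0.578 FPKM in the maturing control and 1.75 FPKM in the proliferating control (log2 ratio -1.60, SE 0.53, q 0.0388 in the authors' deposited table). Of the 11 mast cell and basophil markers, the authors' deposited table marks 4 as lower in the maturing control and 0 as higher. Over all tested genes the shares were 1.17% lower and 0.584% higher. The part of these markers in this result was not tested. Rab38 had 3.24 FPKM in the maturing control and 5.83 FPKM in the proliferating control, without a call.

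The knockdown library was also set against the maturing control in the deposited table, in a comparison that shares a library with each of the others. It holds only 19067 of the 23234 genes. The authors' deposited table called 7 of 43 tested Rab genes higher there, at 7.22% of 9241 tested genes, and 2 lower, at 4.38%. Those higher were Rab13, Rab27b, Rab31, Rab32, Rab38, Rab4a and Rab7l1, and those lower were Rab25, an epithelial relative of Rab11 listed at 0 in the knockdown beside 0.142 FPKM in the maturing control (q 0.0185), and Rab30. Rab38 had a log2 ratio of 1.74 with an SE of 0.52 and a q of 0.0150, and Rab4a a log2 ratio of 1.95 with an SE of 0.54 and a q of 0.00564, both in the authors' deposited table.

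Genes whose products load, switch or read Rab proteins numbered 128. All were found in the table, and 88 were measured. In the knockdown comparison the authors' deposited table called 7 of 104 tested genes higher and 1 lower, at 5.81% and 3.24% of all tested genes. In the maturation comparison it called 2 of 102 higher and 1 lower, at 0.584% and 1.17% of all tested genes. None of the 8 prenylation and GDI genes was called, although Gdi2 had 53.0 FPKM in the knockdown, 38.7 FPKM in the maturing control and 38.0 FPKM in the proliferating control. Of the 36 GAPs, Tbc1d10c had 9.77 FPKM in the knockdown, 1.60 FPKM in the maturing control and 1.08 FPKM in the proliferating control and was called higher in the knockdown in the authors' deposited table (log2 ratio 3.18, SE 0.51, q 3.33e-08). Tbc1d16, a GAP for Rab4, has a call of higher in the authors' deposited table at 0.134 FPKM in the knockdown and at most 0.0114 FPKM in the controls.

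Of the 43 effectors, Mical1, an actin-oxidising enzyme that binds Rab proteins, had 9.03 FPKM in the knockdown, 0.146 FPKM in the maturing control and 0.679 FPKM in the proliferating control. The authors' deposited table calls it higher in the knockdown (log2 ratio 3.73, SE 0.50, q 8.3e-12) and lower in the maturing control (log2 ratio -2.22, SE 0.60, q 0.00400). Mlph, the melanophilin that ties Rab27a on melanosomes to a myosin motor, had 5.30 FPKM in the knockdown, 1.11 FPKM in the maturing control and 1.12 FPKM in the proliferating control, with a log2 ratio of 2.24, an SE of 0.50 and a q of 0.000252 in the authors' deposited table. Rab11fip5, a Rab11 effector, was the effector called lower, with 0.00630 FPKM in the knockdown, 1.76 FPKM in the maturing control and 2.53 FPKM in the proliferating control (log2 ratio -8.65, SE 1.03, q listed at 0 in the authors' deposited table). Its relative Rab11fip4 carries a call of higher in the authors' deposited table at 0.352 FPKM in the knockdown and at most 0.0806 FPKM in the controls. Unc13d, the Rab27 effector of granule priming, had 19.4 FPKM in the knockdown, 9.76 FPKM in the maturing control and 17.5 FPKM in the proliferating control and was not called.

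Among the 35 exchange factors, those called were all below 1 FPKM. Rin3, an exchange factor of the Rab5 subfamily that includes Rab31, had 0.752 FPKM in the knockdown, 0.179 FPKM in the maturing control and 0.0951 FPKM in the proliferating control, with a log2 ratio of 2.98, an SE of 0.55 and a q of 2.76e-06 in the authors' deposited table. St5 had 0.469, 0.274 and 0.0829 FPKM in the same order and was called higher in both comparisons with the proliferating control in the authors' deposited table. Rab3il1 was called higher in the maturing control in the authors' deposited table, at 0.853 FPKM beside 0.126 FPKM in the proliferating control. The 6 Rab-like GTPases had no call. The list medians of the log2 ratio of FPKM + 1 ran from -0.04 to 0.13 in the knockdown comparison and from -0.02 to 0.11 in the maturation comparison.

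**Figure D5:**
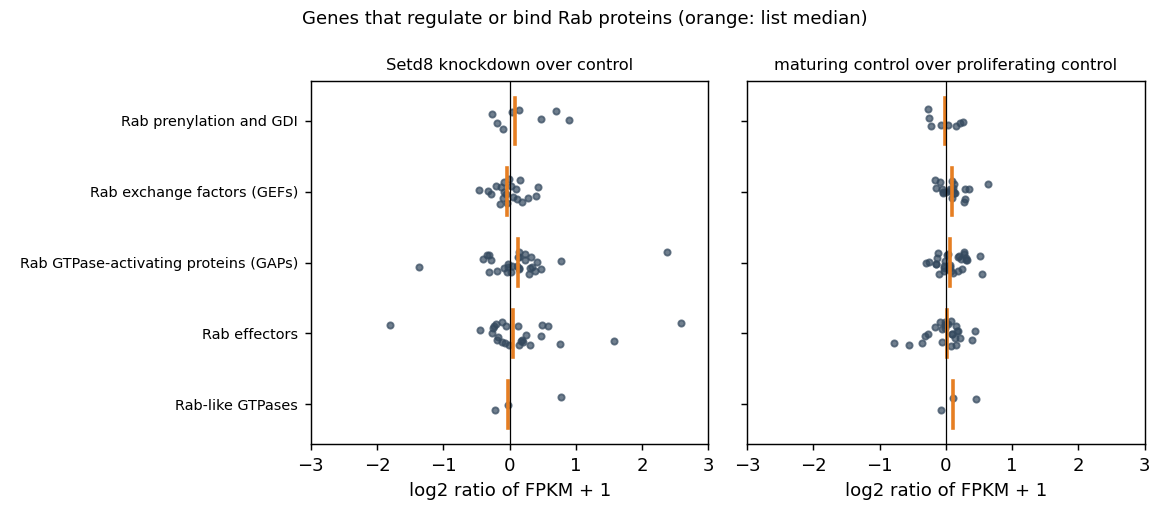
Log2 ratio of FPKM + 1 (horizontal axis) of each measured gene that regulates or binds Rab proteins, by list (rows), with the list median in orange; left, proliferating Setd8 knockdown over proliferating control; right, maturing control over proliferating control. The medians lie between -0.04 and 0.13, and the points far to the right on the left panel include Mical1, Tbc1d10c and Mlph.

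Within 200 kb of the 8 Rab genes called in the knockdown comparison lay 43 other measured genes, of which 2 were called there in the authors' deposited table, both higher, where 5.81% of all tested genes were called higher and 3.24% lower. These were Tmem205 beside Rab3d, with 3.67 FPKM in the knockdown, 0.559 FPKM in the maturing control and 0.658 FPKM in the proliferating control, and Mfsd4 beside Rab7l1, with 7.17, 1.14 and 0.927 FPKM in the same order. The shares over all tested genes include genes below 1 FPKM, while the neighbours were measured genes, so the sets are not alike. None of the 5 measured neighbours of Rab31 or the 8 of Rab44 was called, and Rab27b and Rab32 had no measured gene within that distance. Rab7 and Rab43 lie 185 kb and 387 kb from Gata2 on chromosome 6, and neither was called in the knockdown. Rows of 5 Rab genes (Rab10, Rab2b, Rab3a, Rab40c and Rab6a) overlap another measured row, so their fragments may be shared with it. The largest such row was Gm10012 over Rab40c, at 177.6 FPKM in the knockdown, 193.6 FPKM in the maturing control and 198.5 FPKM in the proliferating control, and no called Rab gene overlapped another row. Close isoforms may also have shared fragments in the authors' counting, which the sources used here do not describe.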

How the data were processed

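Total RNA from cultured mouse ESREs was sequenced as 1 sample per group, per the labels. Cufflinks 2.0.2, Cuffdiff, FastQC 0.10.1 and the mouse build mm9 are credited to the submitters' processing notes, and no aligner or annotation is given in the sources used here. A table was deposited by the authors with 65535 rows in the layout of Cuffdiff. Its values per library were read as the authors' FPKM, the unit that Cuffdiff writes. It covers 23234 genes in each comparison with the proliferating control and 19067 in the third, where 9241 were tested. The rows stop at 65535, so the third comparison and its shares of calls cover only a part of the genes. The maturing knockdown has no values there. Per the file headers it also gives the authors' p-value and q-value, with the statistic and log2 ratio behind them. The knockdown library was matched to its sample by the target and number in its name. The 6 values that differ between comparisons touch no Rab gene, and no column of another sample was present.

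Ratios computed here are log2 ratios of FPKM + 1, which understate the change of low genes, and no test was run on them because each group had 1 library. Relative depth came from the commonest ratio between libraries among genes below 0.03 FPKM (1807 for the knockdown, 2078 for the maturing control). Absolute depth is unknown, so no counting interval is given. Named Rab genes are those called at 1 FPKM or more, those with a ratio of 1 or more in size, the 10 of the highest mean level and close relatives of called genes. Further genes (Rab13, Rab30, Rab25, uncalled members in the role groups, Gdi2, Unc13d and the neighbours) were named after their values were seen. The members, role groups, lists and alternatives were chosen with earlier results of these data known. Alternatives were a q under 0.01, a size of 1 beside the call, other FPKM minimums, pseudocounts of 0.1 and 5, the mean for the median and other scalings. The counting step was tested on simulated data. Python 3.11.15, numpy 2.4.6, pandas 2.3.3 and matplotlib 3.10.9 were used. Promoter sequences are from RefSeq (GRCm38.p6), while coordinates of genes are those of the deposited mm9 table.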

Additional observations from a re-analysis of the deposited data

How the results depend on the processing

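With 1 library per group, differences between cultures are not separated from those between conditions. Of 62 recomputed counts and medians, 53 stayed within 1.5 times the reported count or within 0.1 of the reported median. The count of measured Rab genes called higher in the knockdown was 6, and 2 with the 1 FPKM minimum set in the proliferating control, an alternative chosen after seeing the data that tests fewer genes. The count called lower was 0, and 1 (Rab30) with no minimum. The knockdown median of 0.25 was 0.12 with a pseudocount of 5, 0.51 as a mean and 0.045 with no minimum. In the maturation comparison the 2 genes called lower were 1 at a q under 0.01 and 1 when a size of 1 was also required. The count past that size, 1, was 2 with a pseudocount of 0.1 and 0 with a pseudocount of 5. For 22 single Rab genes, 165 of 176 recomputed ratios stayed within 1 SE of the authors' model (0.1 for Rab7l1, which has none), 11 moved further with the pseudocount, and no called ratio changed sign. Centring subtracted the median of abundant genes, -0.09 in the knockdown comparison and -0.01 in the maturation comparison, which raised every ratio by that size. It turned the maturation median and the uncalled maturation ratios of Rab5c, Rab10 and Rab31, all near -0.00, to 0.01. Low genes depend most on depth, which is unknown. No paired analysis was possible because each group held 1 sample and the calls come from the authors' model.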
